A study of Mus musculus with 12 samples.

Results

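The p53 pathway was followed gene by gene in mouse embryonic stem (ES) cells after knockdown (KD) of factors that write, oxidize or read DNA methylation. The 35 genes examined were Trp53, which encodes p53, and genes known to be activated by p53 or to act on it. They were grouped by known role into 7 feedback genes, 6 cell cycle arrest genes, 12 death genes, 4 DNA repair genes and 6 genes with other roles. Probes were assigned to a gene through the transcript accession printed on the array, and the brightest probe stood for the gene. All 35 genes were on the array and were tested among 29546 genes in all. Of these, 19219 had a gene symbol. The others stood under the name printed on the array, so that a gene may be counted more than once in shares over all genes.

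RNA came from E14 cells, an established male mouse ES cell line grown without feeder cells in serum and LIF, 48 hr after transient transfection of a dish with esiRNAs, which are pools of short interfering RNAs made by enzymatic digestion of longer RNA. The 6 groups had 2 one-colour Agilent arrays each, 12 in all. They were EGFP KD, the control, in which esiRNAs were directed at EGFP, and KD of Dnmt1, the maintenance DNA methyltransferase, of Tet1, which oxidizes 5-methylcytosine, of Mbd3 and Mbd2, which belong to alternative forms of the chromatin complex NuRD, and of Chd4, the ATPase of NuRD. All groups shared the line, the medium, the transfection and the harvest time, and the study called the 2 samples of a group biological replicates. Each sample was a dish of transiently transfected cells, so that a change in every cell cannot be told apart from a larger change in some of them.

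p53 is a transcription factor whose amount and activity are set mainly at the protein level. Mdm2, a ubiquitin ligase, marks p53 for degradation and is itself a p53 target, which closes a negative feedback loop. When DNA is damaged or other stress is sensed, p53 binds response elements built from a pair of 10-base half-sites and activates genes for cell cycle arrest, apoptosis and DNA repair. ES cells are known for abundant p53 and a weak G1 checkpoint.

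The promoters of the genes are shown first, to set the textbook arrest target Cdkn1a and the feedback target Mdm2 beside Btg2 and Ephx1, which had the largest log2 fold changes in Chd4 KD. RefSeq promoter windows of GRCm38.p6, each with 250 bases before and 50 bases after a transcript start, were matched by symbol for 27 of the 35 genes, in 37 windows. The Cdkn1a window shown, of 2 for that gene, was chr17:29090729-29091028 on the + strand, the Mdm2 window was chr10:117710709-117711008 on the - strand, the Btg2 window was chr1:134079106-134079405 on the - strand and the Ephx1 window was chr1:181017520-181017819 on the - strand. They are written 5′ to 3′ along the gene, and capitals mark each match to the p53 half-site consensus.
Cdkn1a: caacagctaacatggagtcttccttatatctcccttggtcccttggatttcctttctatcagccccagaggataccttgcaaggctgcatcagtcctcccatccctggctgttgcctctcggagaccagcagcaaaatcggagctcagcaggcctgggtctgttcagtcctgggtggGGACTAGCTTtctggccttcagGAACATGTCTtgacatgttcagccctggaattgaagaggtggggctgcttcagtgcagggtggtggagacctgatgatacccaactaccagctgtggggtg
Mdm2: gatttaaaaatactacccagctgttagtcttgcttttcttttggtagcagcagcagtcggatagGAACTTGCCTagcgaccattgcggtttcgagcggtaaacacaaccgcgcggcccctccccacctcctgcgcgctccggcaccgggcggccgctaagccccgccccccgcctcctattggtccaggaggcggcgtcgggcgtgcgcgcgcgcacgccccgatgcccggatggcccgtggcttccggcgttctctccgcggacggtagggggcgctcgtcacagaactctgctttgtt
Btg2: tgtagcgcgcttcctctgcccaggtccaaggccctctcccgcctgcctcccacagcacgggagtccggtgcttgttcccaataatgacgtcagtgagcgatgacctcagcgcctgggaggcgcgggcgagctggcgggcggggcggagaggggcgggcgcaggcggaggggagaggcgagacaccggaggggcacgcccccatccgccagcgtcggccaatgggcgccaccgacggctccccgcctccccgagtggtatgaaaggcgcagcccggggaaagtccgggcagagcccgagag
Ephx1: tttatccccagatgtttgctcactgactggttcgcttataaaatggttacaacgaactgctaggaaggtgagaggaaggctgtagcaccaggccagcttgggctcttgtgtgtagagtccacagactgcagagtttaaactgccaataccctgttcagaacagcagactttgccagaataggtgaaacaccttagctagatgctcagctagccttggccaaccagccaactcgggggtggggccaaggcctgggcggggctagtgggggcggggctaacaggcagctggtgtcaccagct

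The Cdkn1a window shown held a full site, that is, 2 half-sites separated by at most 13 bases, and it was the only one of the 37 windows that did. The window of the other Cdkn1a start, chr17:29093519-29093818 on the + strand, held no match. The Mdm2 window held a single half-site, and the Btg2 and Ephx1 windows held no match. Half-sites were searched on both strands with every base of the 10-base p53 consensus required. They were found in 37.8% of the windows of these genes, against 8.36% of all 32851 windows of that length, and a full site was found in 2.7% against 0.0731%. The 14 windows with a half-site belonged to 13 genes, among them Trp53, Ccng1, Bax, Gadd45a, Ei24 and Aen. No window of Bbc3 held a match. The windows of these genes were richer in CpG, with a median of 22 CpGs and 63.3% GC, against 7 CpGs and 52.7% GC over all windows. No window was matched for Zmat3, Trp53inp1, Perp, Tnfrsf10b, Rrm2b, Ddb2, Xpc or Pmaip1. A match describes these letters only, and response elements of p53 targets can lie elsewhere, as in the first intron of Mdm2.

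Levels are given throughout as the log2 of the processed intensity relative to the 75th percentile of the same array, so that 0 is the level of that percentile. Levels were compared between arrays for the same probe. They were not compared between genes, except in the summed intensities of marker lists, where bright probes weigh most. Between 76.9% and 95.2% of probes were well above background on an array, and 33 of the 35 genes were so on all 12 arrays. Fas was well above background on 11 arrays and Rrm2b on 8. The Rps27l probe was saturated on all 12 arrays, so no difference is given for it, although it stays in counts and medians over the 35 genes. Where arrays of a KD are said to overlap the control or to lie above it, this describes 2 arrays against 2. The share of all genes without overlap was not computed, so non-overlap is given as a description only. The arrays lay on 3 slides. On slide 1 lay the first control array with replicate 1 of the Mbd3, Dnmt1 and Mbd2 KDs. On slide 2 lay the second control array with Chd4 KD replicate 1 and the pair labelled Tet1 KD. On slide 3 lay replicate 2 of the Chd4, Mbd2, Mbd3 and Dnmt1 KDs, and no control.

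The targeted genes were checked on each array against the EGFP KD mean, as log2 differences. Mbd3 differed by -3.07 and -2.85 on the Mbd3 KD arrays, Chd4 by -1.55 and -1.01 on the Chd4 KD arrays, and Dnmt1 by -1.64 and -2.35 on the Dnmt1 KD arrays. The arrays labelled Tet1 KD and Mbd2 KD went against their labels in part, on both Tet1 probes and on the dimmer of 2 Mbd2 probes. Of the pair labelled Tet1 KD, replicate 1 showed a difference of -0.02 for Tet1 (probe A_55_P2122997) and -1.75 for Mbd2 (probe A_66_P133043), while replicate 2 showed -1.81 for Tet1 and -0.23 for Mbd2. Of the pair labelled Mbd2 KD, replicate 1 showed -1.79 for Tet1 and -0.24 for Mbd2, while replicate 2 showed -0.19 for Tet1 and -1.77 for Mbd2. On the other Tet1 probe (A_51_P512172) the differences were 0.23 and -0.93 on the pair labelled Tet1 KD and -1.18 and 0.25 on the pair labelled Mbd2 KD. The brighter Mbd2 probe (A_55_P2036526) showed no such pattern, with -0.20 and -0.61 on the pair labelled Tet1 KD and -0.08 and -0.07 on the pair labelled Mbd2 KD, so the reading for Mbd2 rests on a probe chosen after its values were seen. Labels were kept as given. Calls and medians of the p53 pathway genes in these groups are stated with and without the arrays labelled replicate 1. So are the log2 fold changes of Gtse1, Polk, Dram1 and Gdf15. Ranges of log2 fold changes over all KDs use every array, and values that fall outside them without these 2 arrays are given.

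In Chd4 KD 5 of the 35 genes rose and 0 fell at a limma adjusted p under 0.05. They were Ephx1 (epoxide hydrolysis), Btg2 (growth arrest), Zmat3 and Trp53inp1 (feedback on p53) and Bbc3 (apoptosis). That was 14.3% of the genes, against 3.2% of all genes tested. The genes were chosen with earlier results of these data known. Such shares and medians, here and below, therefore describe the list and do not test it. Of all genes tested, 1.97% were called higher. At an unadjusted p under 0.05, 14 of the 35 genes differed, 40.0% against 12.8% of all genes. Of these, 13 were higher, with 6.37% of all genes higher at that p, and Ddb2 was lower, with 6.43% of all genes lower. The median log2 fold change of the 35 genes was 0.36, with 27 positive, against a median of 0 over all genes. Leaving out a single EGFP KD array left 2 of the 5 calls, Ephx1 and Btg2, whichever array it was, and leaving out either Mbd3 KD array, which only enters the shared spread, left 3, Ephx1, Btg2 and Zmat3. With either Chd4 KD array left out, 2 calls were also left, Ephx1 and Zmat3 without replicate 1 and Ephx1 and Bbc3 without replicate 2.

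Mbd3 KD called 1 of the 35 genes, Zmat3, which was higher. This was 2.86%, against 0.762% of all genes tested, and 0.474% of all genes were called higher. At an unadjusted p under 0.05, 6 genes differed, 17.1% against 9.66% of all genes. All 6 were higher, with 4.36% of all genes higher at that p. The median log2 fold change of the 35 genes was 0.13, against -0.03 over all genes. The call of Zmat3 was lost whenever any of the 12 arrays was left out.

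Dnmt1 KD, Tet1 KD and Mbd2 KD each called 0 of the 35 genes at a limma adjusted p under 0.05, with 0.0% of all genes tested called in each. At an unadjusted p under 0.05, Dnmt1 KD had 5 genes, 14.3% against 4.67% of all genes. Gdf15, Cdkn1a, Bbc3 and Pmaip1 were the higher ones, with 3.31% of all genes higher at that p, and Dcxr the lower, with 1.35% of all genes lower. Tet1 KD had 1 gene, 2.86% against 2.85%, and Mbd2 KD had 1 gene, 2.86% against 2.06%, and in both it was Gdf15. The median log2 fold change of the 35 genes was 0.10 in Dnmt1 KD, against -0.01 over all genes. For the groups labelled Tet1 KD and Mbd2 KD the medians were -0.04 and 0.02, against 0.09 and 0.00 over all genes. With the arrays labelled Tet1 KD replicate 1 and Mbd2 KD replicate 1 left out, the calls stayed at 0 in both groups, and the medians were 0.02 and -0.04. At an unadjusted p under 0.05 there were then 2 genes in each, 5.71%, Pmaip1 and Dcxr in Tet1 KD, against 3.34% of all genes, and Dram1 and Gdf15 in Mbd2 KD, against 2.74%. Leaving out those 2 arrays left 2 calls in Chd4 KD, Ephx1 and Btg2, and 0 in Mbd3 KD.

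**Figure D1:**
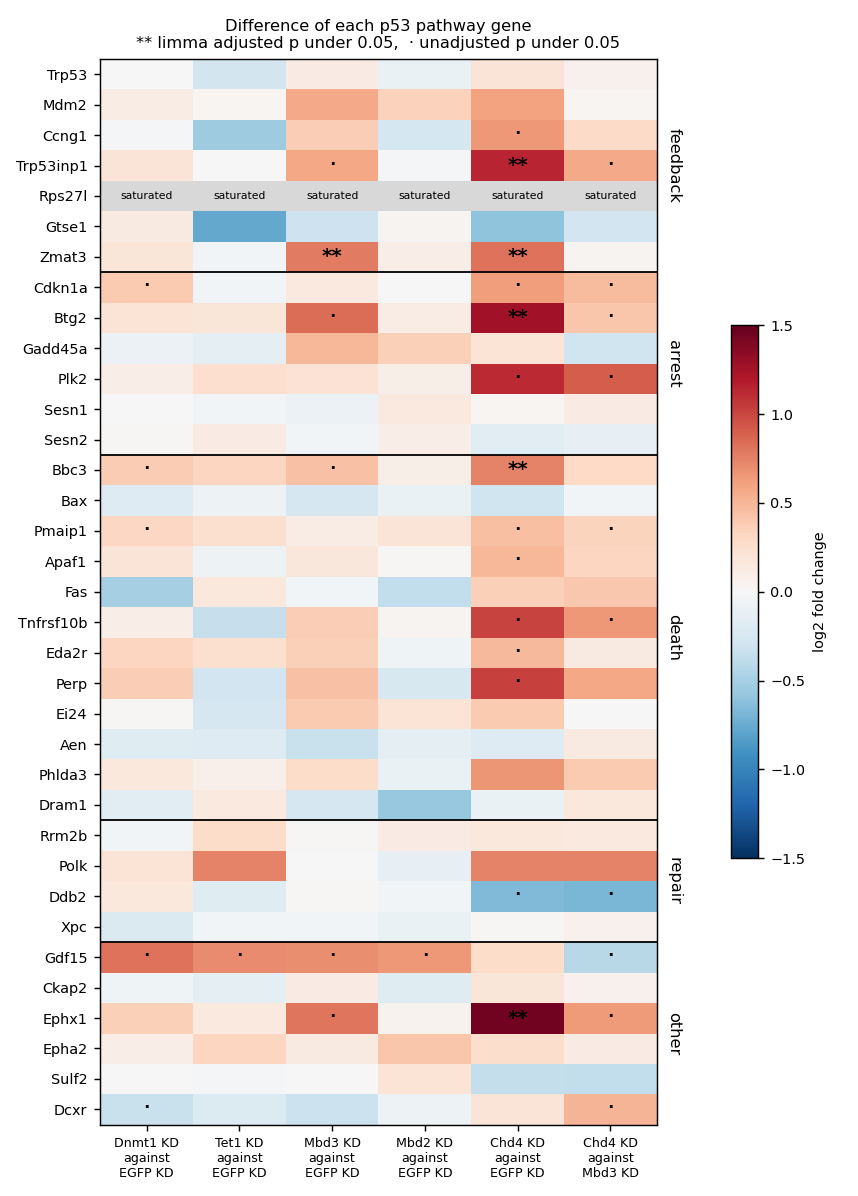
Colour gives the log2 fold change of each of the 35 p53 pathway genes (rows, grouped by role) in each comparison (columns), with 2 asterisks for a limma adjusted p under 0.05 and a dot for an unadjusted p under 0.05. The Chd4 KD column holds 5 genes with asterisks, the Mbd3 KD column 1 and the others 0, and Rps27l is grey because its probe was saturated on all 12 arrays.

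The same shift was read on each array as the median difference of the 35 genes from the EGFP KD mean. It was 0.38 and 0.41 on the Chd4 KD arrays, which lay on slides 2 and 3. The Mbd3 KD arrays followed at 0.24 and 0.14. The medians were 0.12 and 0.08 for Dnmt1 KD, 0.11 and -0.04 for Mbd2 KD, and 0.00 and 0.02 for Tet1 KD. The EGFP KD arrays themselves lay at 0.10 and -0.10. Both Chd4 KD arrays lay above all 10 others, and the Dnmt1 KD, Tet1 KD and Mbd2 KD arrays lay near or within the spread of the controls.

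**Figure D2:**
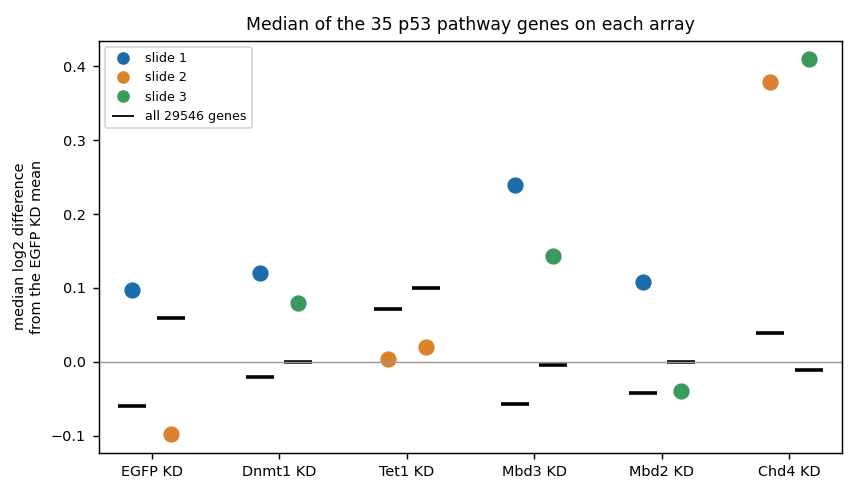
Each point is the median log2 difference of the 35 p53 pathway genes from the EGFP KD mean on an array, replicate 1 at the left of each pair, coloured by slide, and each bar is the median over all 29546 genes on that array. The Chd4 KD points, 0.38 and 0.41, are the highest, and the EGFP KD points lie at 0.10 and -0.10.

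Among the feedback genes, Trp53inp1 and Zmat3 rose in Chd4 KD, Zmat3 rose in Mbd3 KD, and Trp53 itself was not called in any KD. The calls were 28.6% of the 7 genes in Chd4 KD and 14.3% in Mbd3 KD, against 3.2% and 0.762% of all genes. Trp53 was measured at 0.95 and 0.00 in EGFP KD, 0.86 and 0.47 in Chd4 KD, and Mbd3 KD arrays read 0.85 and 0.36. The Dnmt1 KD arrays read 0.88 and 0.07, the Mbd2 KD arrays 0.76 and -0.01, and the Tet1 KD arrays 0.48 and -0.07. The 2 control arrays lay farther apart than any KD mean lay from the control mean, and the 4 arrays of slide 1 were all between 0.76 and 0.95. In Chd4 KD the Trp53 difference was 0.19 on the log2 scale, with a 95% interval from -0.88 to 1.26 (limma adjusted p = 0.965).

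Mdm2, the ligase that degrades p53, was measured at 2.38 and 2.46 in EGFP KD, and 2.78 and 3.26 in Chd4 KD. The Mbd3 KD arrays read 2.69 and 3.30, and the Mbd2 KD arrays 2.52 and 3.02. The Dnmt1 KD arrays read 2.51 and 2.56, and the Tet1 KD arrays 2.44 and 2.45. The Chd4, Mbd3, Mbd2 and Dnmt1 KDs did not overlap the control, and in each of them the array on slide 3, which held no control, was the higher one. Neither the Chd4 KD difference of 0.60 on the log2 scale (limma adjusted p = 0.395, standard error 0.26) nor that of 0.57 for Mbd3 KD (limma adjusted p = 0.555) passed the test.

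Trp53inp1, a stress protein that promotes p53 phosphorylation and autophagy, was measured at 0.95 and 1.10 in EGFP KD and at 2.09 and 2.25 in Chd4 KD. Mbd3 KD, at 1.54 and 1.66, lay between these groups without overlapping either. The other arrays ranged from 0.78 to 1.47 and were not called. In Chd4 KD it rose 2.22-fold (95% interval 1.59 to 3.09, limma adjusted p = 0.0316). In Mbd3 KD its difference was 0.57 on the log2 scale (limma adjusted p = 0.391). A second, dimmer Trp53inp1 probe read -0.97 and -1.81 in EGFP KD and -0.73 and -0.46 in Chd4 KD, and with the mean of both probes the Chd4 KD call was lost (limma adjusted p = 0.0955).

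Zmat3, an RNA-binding zinc finger protein induced by p53, was the gene called in Chd4 KD as well as in Mbd3 KD. It was measured at 1.33 and 1.15 in EGFP KD, 1.96 and 2.16 in Chd4 KD, with Mbd3 KD at 1.95 and 2.09. The 4 arrays of Chd4 KD and Mbd3 KD lay above the other 8, which ranged from 1.15 to 1.49. It rose 1.76-fold in Chd4 KD (95% interval 1.45 to 2.15, limma adjusted p = 0.0155) and 1.72-fold in Mbd3 KD (95% interval 1.41 to 2.09, limma adjusted p = 0.0456). The direct difference between Chd4 KD and Mbd3 KD was 0.04 on the log2 scale, with a 95% interval from -0.25 to 0.32.

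Ccng1, a cyclin that recruits a phosphatase to Mdm2, was measured at 1.23 and 0.70 in EGFP KD and at 1.55 and 1.69 in Chd4 KD, with a log2 fold change of 0.65 (limma adjusted p = 0.254). Gtse1, which binds p53 and takes it out of the nucleus, was measured at -0.03 and -1.58 in EGFP KD and at -1.44 and -1.71 in Tet1 KD. Its 4 arrays of slide 1 were between -0.49 and 0.07 and the 8 others between -1.75 and -1.23, so that slide took 93.1% of its variance. The log2 fold change of -0.77 in Tet1 KD (limma adjusted p = 1.0) set arrays of slide 2 against a control mean over slides 1 and 2. Without the array labelled Tet1 KD replicate 1 and its Mbd2 KD counterpart it was -0.90 (limma adjusted p = 1.0).

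**Figure D3:**
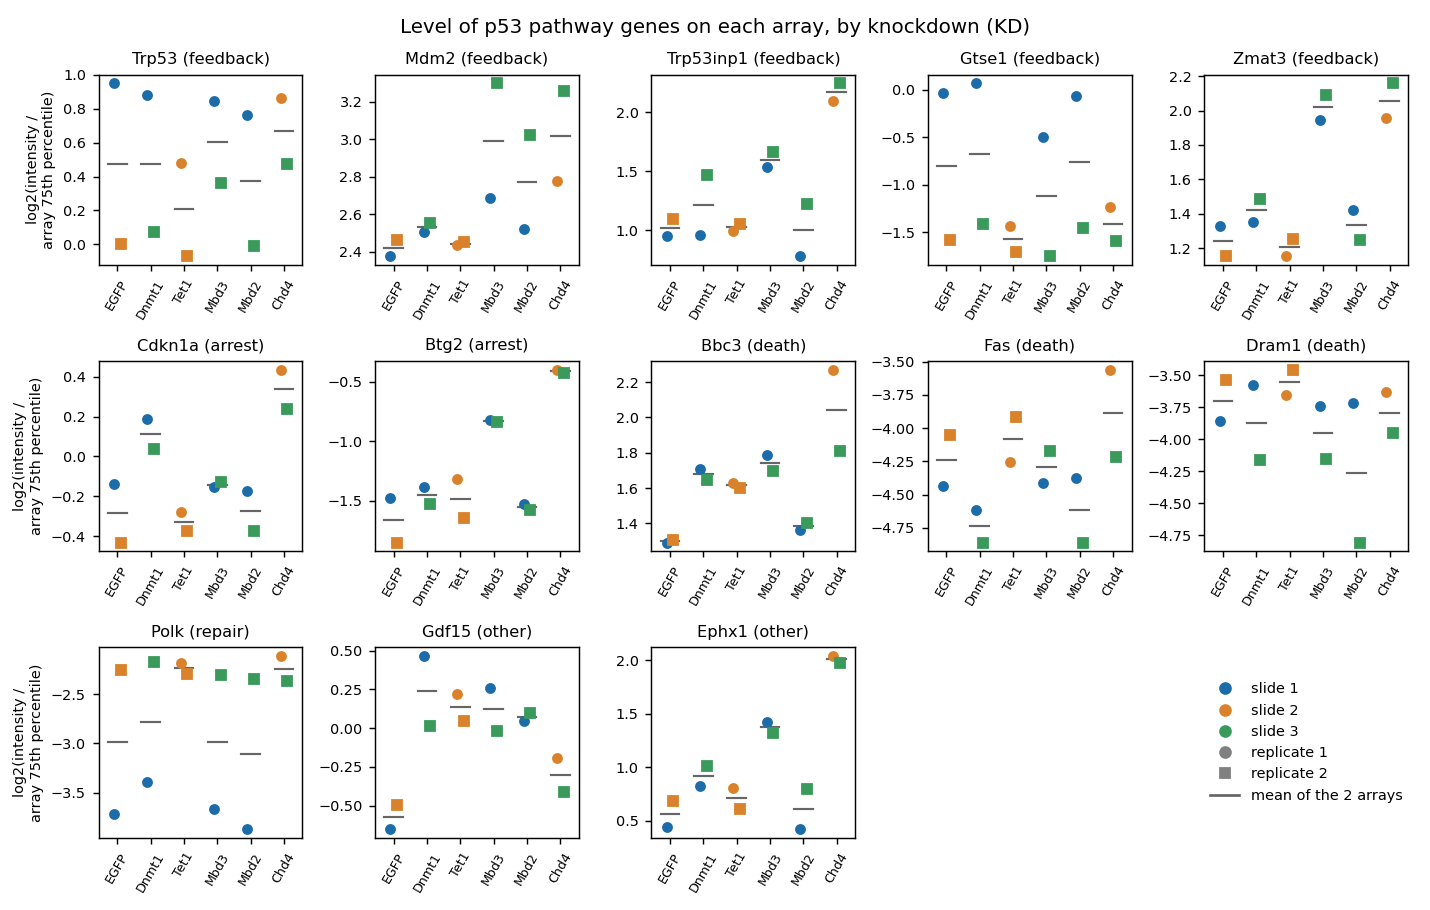
Each panel gives the log2 level of 1 gene (log2 of the intensity over the array's 75th percentile, own scale for each panel) on the 12 arrays, with circles for replicate 1, squares for replicate 2, colour for the slide and a bar for the mean of the 2 arrays of a KD. Ephx1, Btg2, Trp53inp1, Zmat3 and Bbc3 have their highest mean in Chd4 KD without overlapping EGFP KD, Zmat3 reads 1.95 and 2.09 in Mbd3 KD, and the slide 1 arrays lie apart from the others for Gtse1 and Polk.

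Among the 6 arrest genes, 1 was called in Chd4 KD and 0 in the other KDs, and the median log2 fold change in Chd4 KD was 0.41. That was 16.7% called, against 3.2% of all genes tested, whose median was 0. The called gene was Btg2, an antiproliferative protein that recruits mRNA deadenylases. Btg2 was measured at -1.48 and -1.85 in EGFP KD, -0.40 and -0.43 in Chd4 KD, with Mbd3 KD at -0.82 and -0.84. The remaining 6 arrays ranged from -1.65 to -1.32. Chd4 KD was highest, Mbd3 KD was next, and neither overlapped the rest. Btg2 rose 2.39-fold in Chd4 KD (95% interval 1.86 to 3.07, limma adjusted p = 0.00743), and its 1.79-fold difference in Mbd3 KD had a limma adjusted p of 0.0773.

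Cdkn1a, which encodes the cyclin-dependent kinase inhibitor p21, had the full p53 site in the window shown and no match at its other start. Windows were matched by symbol, so the site is not tied to the transcript measured. Cdkn1a was read from 8 to 10 spots per array. It was measured at -0.14 and -0.43 in EGFP KD, 0.44 and 0.24 in Chd4 KD and 0.19 and 0.04 in Dnmt1 KD. The Mbd3 KD arrays read -0.15 and -0.13, the Mbd2 KD arrays -0.17 and -0.38, and the Tet1 KD arrays -0.28 and -0.38. Chd4 KD and Dnmt1 KD lay above the control without overlap, while the other KDs overlapped it. Cdkn1a was 0.62 higher in Chd4 KD on the log2 scale (limma adjusted p = 0.0643, 95% interval 0.30 to 0.94), 0.40 higher in Dnmt1 KD (limma adjusted p = 0.891) and 0.14 higher in Mbd3 KD (limma adjusted p = 0.832). A dimmer Cdkn1a probe for another transcript (probe A_55_P1986282) read -2.38 and -3.28 in EGFP KD and -3.06 and -3.58 in Chd4 KD, which overlap, and with the mean of both probes the Chd4 KD fold change was 0.06 on the log2 scale.

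Plk2, a polo-like kinase, was measured at -2.48 and -2.58 in EGFP KD and at -1.20 and -1.62 in Chd4 KD. These groups did not overlap, and Plk2 was 1.12 higher in Chd4 KD on the log2 scale (limma adjusted p = 0.154). Gadd45a, a stress protein that binds PCNA and p21, was measured at 1.05 and 0.70 in EGFP KD, 1.23 and 1.51 in Mbd3 KD and at 0.75 and 1.40 after Chd4 KD. The stress-induced sestrins Sesn1 and Sesn2, which restrain mTORC1, had log2 fold changes between -0.17 and 0.15 in all 5 KDs as labelled. Without the 2 arrays against their labels, that of Sesn1 was 0.29 in Mbd2 KD.

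Among the 12 death genes, 1 was called higher in Chd4 KD and 0 in the other KDs, and the median log2 fold change in Chd4 KD was 0.47. That was 8.33% called, against 3.2% of all genes tested, whose median was 0. The called gene was Bbc3, which encodes the BH3-only protein Puma. Bbc3 was measured at 1.29 and 1.30 in EGFP KD, 2.27 and 1.81 in Chd4 KD, and 1.79 and 1.70 in Mbd3 KD. The Dnmt1 KD arrays read 1.71 and 1.65, the Tet1 KD arrays 1.63 and 1.60, and the Mbd2 KD arrays 1.36 and 1.40. All 10 KD arrays lay above both control arrays, and the pair of Chd4 KD arrays was the widest. Bbc3 rose 1.67-fold in Chd4 KD (95% interval 1.33 to 2.11, limma adjusted p = 0.042). It was 0.44 higher on the log2 scale in Mbd3 KD (limma adjusted p = 0.321) and 0.38 higher in Dnmt1 KD (limma adjusted p = 0.939).

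The other BH3-only gene, Pmaip1, which encodes Noxa, was measured at -0.62 and -0.60 in EGFP KD and at -0.26 and -0.07 in Chd4 KD, with a log2 fold change of 0.45 (limma adjusted p = 0.122). Bax, the pore-forming effector, was measured at 4.47 and 4.32 in EGFP KD and at 4.34 and 3.86 in Chd4 KD, which overlap. Its variance lay mostly between slides, at 82.2%, and its log2 fold changes were between -0.29 and -0.08 in the 5 KDs as labelled. Without the 2 arrays against their labels, that of Bax was -0.32 in Mbd2 KD. Apaf1, the scaffold of the apoptosome, was measured at -2.55 and -2.85 in EGFP KD and at -2.32 and -2.08 in Chd4 KD (log2 fold change 0.50, limma adjusted p = 0.169).

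Tnfrsf10b, the TRAIL receptor, was measured at 1.85 and 1.55 in EGFP KD and at 2.50 and 2.93 in Chd4 KD. Perp, a membrane protein of desmosomes linked to p53-dependent death, was measured at 1.52 and 1.17 in EGFP KD and at 2.48 and 2.27 in Chd4 KD. Neither gene overlapped the control in Chd4 KD. The log2 fold changes were 1.02 for Tnfrsf10b (standard error 0.22, limma adjusted p = 0.0654) and 1.03 for Perp (standard error 0.25, limma adjusted p = 0.0982), short of the threshold. Eda2r, a receptor of the same superfamily as Tnfrsf10b, had a log2 fold change of 0.49 (limma adjusted p = 0.386) and Phlda3, an inhibitor of Akt, 0.67 (limma adjusted p = 0.527).

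Fas, the death receptor, was measured at -4.44 and -4.05 in EGFP KD and at -4.62 and -4.86 in Dnmt1 KD. The lowest of these was the floor set for dim spots, so that no order can be read among values there. The log2 fold change was -0.50 (limma adjusted p = 0.939). Dram1, a lysosomal membrane protein of autophagy, was measured at -3.86 and -3.54 in EGFP KD and at -3.71 and -4.81 in the arrays labelled Mbd2 KD, with a log2 fold change of -0.56 (limma adjusted p = 1.0). Without the array labelled Mbd2 KD replicate 1 that value was -1.11 (limma adjusted p = 0.842), so it rested on the array of slide 3. Aen, a p53-induced nuclease, and Ei24, a membrane protein of the endoplasmic reticulum, had log2 fold changes between -0.34 and 0.39 in the 5 KDs as labelled. Without the 2 arrays against their labels, those in Mbd2 KD were -0.42 for Aen and 0.40 for Ei24.

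Of the 4 repair genes, 0 were called in any KD, and the median log2 fold change in Chd4 KD was 0.09. Ddb2, which recognizes ultraviolet lesions, had the lowest log2 fold change of the 35 genes in Chd4 KD. It was measured at -1.44 and -1.35 in EGFP KD and at -2.04 and -2.08 in Chd4 KD, where the groups did not overlap, and at -1.26 and -1.49 in Mbd3 KD. Its difference of -0.67 on the log2 scale in Chd4 KD had a limma adjusted p of 0.209 (standard error 0.21). With either array labelled Tet1 KD left out, Ddb2 was called lower in Chd4 KD.

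Polk, a translesion DNA polymerase, was measured at -3.71 and -2.26 in EGFP KD, -2.18 and -2.30 in Tet1 KD, with Chd4 KD at -2.12 and -2.37. The 4 arrays of slide 1 were between -3.87 and -3.39 and the 8 others between -2.37 and -2.12, and slide took 97.0% of the variance. Its log2 fold change in Tet1 KD was 0.75 (limma adjusted p = 1.0), with slide as a block it was -0.01, and without the 2 arrays against their labels it was 0.69. A second Polk probe read -2.59 and -3.10 in EGFP KD and -3.30 and -2.87 in Tet1 KD, with no such split. Xpc, the sensor of nucleotide excision repair, had log2 fold changes between -0.22 and 0.02 in the 5 KDs as labelled. Without the 2 arrays against their labels, that of Xpc was -0.31 in Mbd2 KD. Rrm2b, the p53-induced subunit of ribonucleotide reductase, was at the floor on the replicate 2 array of every group.

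Of the 6 genes with other roles, Ephx1 was called in Chd4 KD, 16.7% against 3.2% of all genes tested. Ephx1, the microsomal epoxide hydrolase of xenobiotic metabolism, was measured at 0.45 and 0.68 in EGFP KD, 2.04 and 1.98 in Chd4 KD, with Mbd3 KD at 1.42 and 1.32. The remaining 6 arrays ranged from 0.42 to 1.01. The Chd4 KD arrays were highest and the Mbd3 KD arrays next, both without overlap. Ephx1 rose 2.72-fold in Chd4 KD (95% interval 2.11 to 3.50, limma adjusted p = 0.00482), and its 1.75-fold difference in Mbd3 KD had a limma adjusted p of 0.0879. A second Ephx1 probe (probe A_55_P2002577) read 0.57 and 0.83 in EGFP KD, 1.62 and 0.31 in Chd4 KD, with Mbd3 KD at 0.70 and -0.58, low on slide 3, and with the mean of both probes the Chd4 KD call was lost (limma adjusted p = 0.368).

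Gdf15, a secreted stress cytokine of the TGF-beta family, differed at an unadjusted p under 0.05 in every KD but Chd4 KD. It was measured at -0.65 and -0.50 in EGFP KD, and Chd4 KD arrays read -0.19 and -0.41. The Dnmt1 KD arrays read 0.47 and 0.01, the Mbd3 KD arrays 0.26 and -0.02, the Tet1 KD arrays 0.22 and 0.05, and the Mbd2 KD arrays 0.05 and 0.10. All 10 KD arrays lay above both control arrays, and the 2 Chd4 KD arrays were the lowest of the 10. Gdf15 was 0.81 higher on the log2 scale in Dnmt1 KD (limma adjusted p = 0.46) and 0.70 higher in Mbd3 KD (limma adjusted p = 0.191). For the groups labelled Tet1 KD and Mbd2 KD it was 0.71 and 0.65 higher (limma adjusted p = 1.0 for both), or 0.62 and 0.67 higher without the 2 arrays against their labels (limma adjusted p = 1.0 and 0.842), and for Chd4 KD 0.27 higher (limma adjusted p = 0.689). None passed the test, and all 5 differences used the same 2 control arrays.

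Dcxr, a carbonyl reductase, differed by -0.33 on the log2 scale in Dnmt1 KD (limma adjusted p = 0.939), by -0.32 in Mbd3 KD (limma adjusted p = 0.549) and by 0.19 in Chd4 KD (limma adjusted p = 0.76). Sulf2, an extracellular sulfatase, was measured at 1.83 and 1.60 in EGFP KD and at 1.13 and 1.58 in Chd4 KD. Epha2, an ephrin receptor, and Ckap2, a spindle protein, had log2 fold changes between -0.18 and 0.42 in the 5 KDs as labelled. Without the 2 arrays against their labels, that of Ckap2 was -0.31 in Tet1 KD and -0.38 in Mbd2 KD. That of Epha2 was then 0.44 in Mbd2 KD.

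Whether Chd4 KD and Mbd3 KD differed was tested by the contrast between them, which uses no control array. It called 0 of the 35 genes at a limma adjusted p under 0.05, against 1.41% of all genes tested. At an unadjusted p under 0.05, 10 of the 35 genes differed, 28.6% against 10.1% of all genes, with 8 higher and 2 lower in Chd4 KD, against 5.81% and 4.27% of all genes. The 8 were Ephx1, Dcxr, Cdkn1a, Tnfrsf10b, Pmaip1, Trp53inp1, Plk2 and Btg2, and the 2 were Ddb2 and Gdf15. Cdkn1a was 0.48 higher in Chd4 KD on the log2 scale (95% interval 0.16 to 0.80, limma adjusted p = 0.209) and Ephx1 0.63 higher (95% interval 0.27 to 1.00, limma adjusted p = 0.14). Mdm2 differed by 0.03, with a wide 95% interval from -0.58 to 0.63. On slide 3, where replicate 2 of both KDs lay, 22 of the 35 genes (62.9%) were higher in Chd4 KD, against 46.3% of all genes, with a median difference of 0.11 against 0 over all genes.

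**Figure D4:**
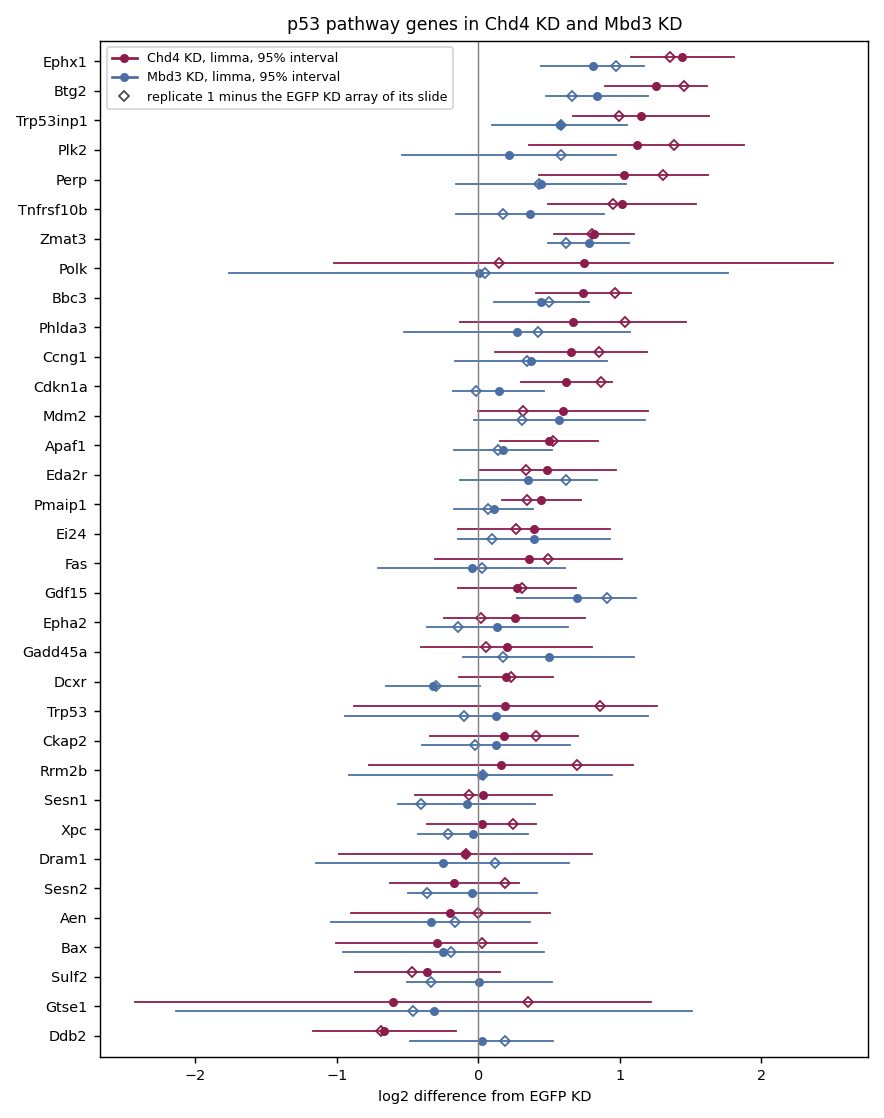
Filled circles with bars are the log2 differences of p53 pathway genes from EGFP KD with their 95% intervals from limma (Chd4 KD dark red, Mbd3 KD blue), and open diamonds are the difference of replicate 1 from the control array of its own slide (Chd4 KD on slide 2, Mbd3 KD on slide 1). Ephx1 and Btg2 lie at the top with Chd4 KD values of 1.44 and 1.26, Ddb2 at the bottom with -0.67, and Polk and Gtse1 have the widest intervals.

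The slides were compared next, because a control array was present on slides 1 and 2 only. Within slide 2, Chd4 KD replicate 1 exceeded EGFP KD replicate 2 in 29 of the 35 genes (82.9%), against 39.2% of all genes, with a median difference of 0.34 against -0.04. There Btg2 was 1.46 higher, Plk2 1.38, Ephx1 1.35, Perp 1.31, Phlda3 1.04, Trp53inp1 1.00, Bbc3 0.97, Tnfrsf10b 0.95, Cdkn1a 0.87, Trp53 0.86, Ccng1 0.85 and Zmat3 0.80. For Trp53 this was above the 0.19 of the fit, whose control mean held the high array of slide 1. It set 1 array against 1. Against the same control array, Trp53 differed by 0.48 and -0.07 on the arrays labelled Tet1 KD replicates 1 and 2. Within slide 1 the median differences were 0.09 in Mbd3 KD, with 22 of 35 genes higher, 0.10 in Dnmt1 KD, with 21 higher, and 0.01 in Mbd2 KD, with 18 higher, against 47.8% to 52.9% of all genes higher. Within slide 2 they were 0.07 and 0.08 in Tet1 KD, with 21 and 19 genes higher, against 49.0% and 52.2% of all genes.

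When slide entered the fit as a block, Chd4 KD called 11 of the 35 genes, all higher, against 4.39% of all genes. They were the 5 genes above and Phlda3, Ccng1, Plk2, Apaf1, Cdkn1a and Perp. Cdkn1a was then 0.71 higher (standard error 0.12, limma adjusted p = 0.0453) and Phlda3 0.98 higher (standard error 0.12, limma adjusted p = 0.0202). Mbd3 KD called 0 genes in that fit, with Zmat3 0.68 higher (limma adjusted p = 0.0982). Trp53 was 0.58 higher in Chd4 KD (limma adjusted p = 0.323).

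Other genes of the pathway, from lists of 20 regulators upstream of p53, 18 further targets and 12 cell cycle genes that p21 represses through the DREAM complex, were read in the same fit. In Chd4 KD, 1 of 20 upstream genes, 2 of 18 further targets and 0 of 11 tested DREAM genes were called, which is 5.0%, 11.1% and 0.0% against 3.2% of all genes, with median log2 fold changes of -0.11, 0.06 and -0.04. None was called in the other 4 KDs, where between 0 and 3 upstream genes, 0 and 4 further targets and 0 and 2 DREAM genes had an unadjusted p under 0.05. The highest of these counts were all in Mbd3 KD, 3 of 20, 4 of 18 and 2 of 11, against 9.66% of all genes. The called upstream gene was Sirt1, which deacetylates p53, with a log2 fold change of -0.84 (limma adjusted p = 0.0461). The called targets were Sfn, which encodes 14-3-3 sigma and holds mitotic kinases in the cytoplasm, at 0.66 (limma adjusted p = 0.0186), and Rprm, a G2 arrest protein, at -0.87 (limma adjusted p = 0.0239). Between Chd4 KD and Mbd3 KD, Tap1, a peptide transporter, was at least 2.16-fold higher in Chd4 KD (limma adjusted p = 0.0466). This is a bound, since the Tap1 probe was well above background on neither Mbd3 KD array and read -4.81 and -4.82 there, near the floor of -4.86. In the same contrast Cdkn2a, which encodes the Mdm2 inhibitor Arf, differed by -0.90 on the log2 scale, lower in Chd4 KD (limma adjusted p = 0.0314).

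Single markers of fibroblasts and trophectoderm differed in the same groups. Of 5 primitive endoderm, 4 mesoderm and 4 neural markers, 0 were called in any KD. Of 5 fibroblast markers, 2 were called in Chd4 KD, both higher, 40.0% against 3.2% of all genes tested. Thy1 was measured at 1.70 and 1.80 in EGFP KD, 3.31 and 3.01 in Chd4 KD, and had a mean of 3.03 over the 2 Mbd3 KD arrays, and its log2 fold change in Chd4 KD was 1.42 (limma adjusted p = 0.00204). Col1a1 was measured at -4.29 and -4.41 in EGFP KD and at -1.80 and -1.90 in Chd4 KD, a log2 fold change of 2.49 (limma adjusted p = 0.00198). The other markers of that list were Col1a2, Dcn and Lum, with log2 fold changes of -0.02, -0.51 and -1.07 in Chd4 KD, none called. The median of the 5 was -0.02 in Chd4 KD and -0.23 in Mbd3 KD, with 2 of 5 positive in each. The summed scaled intensity of the list, 4.65 to 4.90 in EGFP KD, 9.12 to 9.40 in Mbd3 KD and 9.17 to 11.6 in Chd4 KD, was made up mostly by Thy1, the brightest of them.

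Of 6 trophectoderm markers, 2 were called higher in Chd4 KD, Tfap2c with a log2 fold change of 1.05 (limma adjusted p = 0.0066) and Krt18 with 1.18 (limma adjusted p = 0.0195). That was 33.3%, against 3.2% of all genes tested. The median of the 6 was 0.33, with 5 positive, and their summed scaled intensity, mostly from Tfap2c and Krt18, was 6.73 to 7.44 in EGFP KD, 11.4 to 11.7 in Mbd3 KD and 14.0 to 14.7 in Chd4 KD. Cdx2 was at the floor on both Chd4 KD arrays. In Mbd3 KD, Thy1 and Tfap2c were called. Of 8 ES cell markers, 7 were well above background on all 12 arrays and 0 were called in any KD, but 4 of them, Pou5f1, Zfp42, Esrrb and Dppa5a, were saturated on 11 or 12 arrays, so that no difference is read from them. The part of these markers in the p53 pathway values was not tested.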

How the data were processed

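RNA of 12 E14 ES cell samples was measured on one-colour Agilent arrays. The authors quantified spots with Agilent Feature Extraction 10.7.1.1 (the submitters' processing notes) and deposited the scanner output, whose processed intensity is corrected for local background and not normalized between arrays. A deposited series table holds log2 values against EGFP KD. Set against the scanner files, they tracked the log2 ratio of log2 median signals after quantile normalization (r between 0.9992 and 0.9997) on a scale that such a ratio compresses by construction, with a slope between 0.143 and 0.160, and with column medians between -0.0062 and 0.0037. That table was used as an alternative only.

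Outlier spots and 1377 control spots were left out. The intensity was divided by each array's 75th percentile (1784 to 2452), floored at 0.0344, the weakest scaled signal well above background on the array where that was highest, and turned into log2. Spots of a probe were averaged. A probe was tested if both arrays of some group measured it well above background, and a gene was represented by its brightest probe by mean log2 value. Accessions were named through a RefSeq table of GRCm38.p6, with a match for 71.4% of spots and for 98.4% of those with a RefSeq mRNA. Promoter windows came from RefSeq, GRCm38.p6. The array design gives positions in another build, so no probe coordinates are printed.

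The 12 arrays in 6 groups were fitted together (limma 3.58.1, R 4.3.3), giving a total of 7.04 degrees of freedom, and p-values were adjusted by Benjamini-Hochberg over 29546 genes within a comparison. Intervals are 95% intervals of the fit. The fit and its calls were run on simulated gene-level values with known changes, drawn without a slide effect. The scaling, the floor, the averaging of spots and the choice of probe were not simulated. The members, roles and lists were chosen with earlier results of these data known. Per-array values are given for Trp53, Cdkn1a, Mdm2, called genes and, for each KD, the 2 genes with the largest absolute log2 fold change, and for further genes where a result is described. Whether replicate numbers paired samples was checked over 15 pairs of groups. The correlation of deviations was between -0.04 and 0.77 and over 0.1 in 10. It was highest, 0.64 to 0.77, among the Dnmt1, Mbd3 and Mbd2 KDs. Their replicate 1 lay on slide 1 and their replicate 2 on slide 3, so replicate number cannot be told apart from slide there. The main fit held no block, and replicate number and slide entered as blocks among the alternatives. Of 23 alternatives, 22 were set at the start and 1, leaving out the 2 arrays that went against their labels, was chosen after seeing the data. They covered normalization, background correction, filters, probe choice, replicate or slide as a block, fewer arrays in the fit, the variance prior, each array left out and the deposited table. Only 2 arrays per group limit the precision.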

Additional observations from a re-analysis of the deposited data

How the results depend on the processing

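Of 23 alternatives, the numbers of p53 pathway genes called stayed at 0 in Tet1 KD and Mbd2 KD in all, and at 0 in Dnmt1 KD and in the contrast of Chd4 KD with Mbd3 KD in all but the deposited table, which called 6 and 4. In Chd4 KD the 5 calls became 1 with normexp background correction, 3 with the mean of a gene's probes, 11 with slide as a block, 0 with only the 4 arrays of the comparison, 2 without the 2 arrays against their labels and 15 (14 higher) in the deposited table, and 2 to 4 with each array left out. In Mbd3 KD the 1 call became 0 with normexp, with probes well above background on all arrays, with slide as a block, with only 4 arrays, with the trended and robust prior, without the 2 arrays against their labels and with each array left out, and 9 in the deposited table. The deposited table held 18 of the 35 genes and has no spread for the control, and it called 14.4%, 46.0%, 56.7% and 16.5% of its genes in Dnmt1 KD, Mbd3 KD, Chd4 KD and the contrast. The 3 calls in the other pathway lists became 0 with normexp, with only 4 arrays and without the 2 arrays, 1 with probes well above background on all arrays, 6 with the replicate block, 21 in the deposited table and 0 to 3 with each array left out. With the replicate number as a block, Chd4 KD called 6 of the 35 genes and Mbd3 KD called 1, Btg2 in place of Zmat3. Over the alternatives, the Chd4 KD calls were kept for Ephx1 in 20, Btg2 in 19, Zmat3 in 17, Trp53inp1 in 11 and Bbc3 in 8. The cause of these changes was not tested, beyond fewer arrays in the fit.

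Some differences turned sign. With each array left out, Trp53 ranged from -0.35 to 0.60 in Mbd3 KD, and for Chd4 KD from -0.28 to 0.66, the low ends without EGFP KD replicate 2, and it was also below 0 without replicate 1 of the KD (-0.12 and -0.0041). Gtse1 in Tet1 KD ranged from -1.54 to 0.0066 and Cdkn1a in Mbd3 KD from -0.0047 to 0.29, depending on the EGFP KD array left out. Polk in Tet1 KD was -0.0878 with normexp and -0.0142 with slide as a block, Cdkn1a in Mbd3 KD was -0.0871 with the mean of its probes, and Ephx1 in Mbd3 KD, 0.81 in the fit as reported, was -0.0012 in the deposited table.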
